A study of Mus musculus with 6 samples.

Results

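The lipoprotein genes described here are 9 apolipoprotein genes (Apoa1, Apoa2, Apoa4, Apob, Apoc1, Apoc3, Apoe, Apoh and Apom) and Mttp, 10 of the 23233 gene lines in the table, taken by symbol for their function. Each matched 1 line. Messenger RNA was measured in the gut of E10.5 mouse embryos, in 3 Ret null (homozygous) samples and in 3 wildtype samples. The strain of both genotypes is C57BL/6J, and the embryos are described as male. Ret encodes a receptor tyrosine kinase for ligands of the GDNF family, which the neural crest cells that form the nervous system of the gut depend on. The sequence that the null allele lacks is not given, nor whether a sample was 1 embryo or several.

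Apolipoproteins are the proteins of lipoprotein particles, which carry triglyceride, cholesterol and fat-soluble molecules through blood and lymph. Apolipoprotein B forms the frame of the triglyceride-rich particles and is loaded with lipid in the endoplasmic reticulum by the microsomal triglyceride transfer protein, encoded by Mttp. Apolipoproteins A-I and A-II build high-density lipoprotein, and the smaller C proteins and apolipoprotein E move between particles and set how fast they are broken down or taken up. In the embryo the visceral yolk sac and the liver are known makers of these proteins, and the intestine joins them as its epithelium matures.

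Values are FPKM, fragment counts scaled for transcript length and for library size, with 1 value for each genotype as the authors computed it from the libraries of that genotype, so no spread between samples can be given and the read depth is unknown. An error after ± is the standard error of the log2 fold change that the authors' test statistic implies, and folds and log2 fold changes (below, log2 ratios) are Ret null over wildtype. A gene is said to rise or fall only where the authors' deposited table lists q under 0.05, by Cuffdiff's gene test. That rule called 14.6% of 13430 tested lines, of which 5.69% rose and 8.88% fell. Ret itself stood at 0.0354 FPKM in Ret null gut, against 8.80 FPKM in wildtype gut. The sex-linked genes did not go with 1 sex in both genotypes. Xist, which coats and silences the inactive X of female cells, stood at 31.8 FPKM in Ret null gut and 0.136 FPKM in wildtype gut, and the Y-linked genes Kdm5d, Uty, Ddx3y and Eif2s3y were 0.502 to 0.610 times as high in Ret null as in wildtype gut. Their part in the results below was not tested.

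Of the 10 genes, 4 rose in Ret null gut, 0 fell, 3 did not pass and 3 were too low for the authors to test. The rises were in Apoa1, Apoa2 and Apom, by 3.06, 4.23 and 3.39 on the log2 scale, and in Apob, by 0.94. The products of the first 3 are proteins of high-density lipoprotein. They are not all of its proteins, since apolipoprotein E and the C proteins move between particles, and Apoe and Apoc1 did not pass. Apoe, by far the most abundant of the 10, was close to equal in both genotypes. The 4 rises are 57.1% of the 7 tested genes, beside 5.69% of all tested lines that rose. Since a gene was tested only above a low level, the 7 are not a fair sample of the 10. The same holds for each list below in which some genes were not tested. In whole-gut RNA, more cells of a type and more RNA per cell cannot be told apart, nor can fewer cells and less RNA per cell.

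Promoter windows from RefSeq (build GRCm38.p6) are shown for the 4 genes that rose and for Apoe, so that the abundant gene without a call can be set beside them. Each runs from 250 bases before the start site to 49 bases after it, 5′ to 3′ on the strand of the gene. The windows are chr9:46228380-46228679 (plus strand) for Apoa1, chr1:171224804-171225103 (plus) for Apoa2, chr17:35131752-35132051 (minus) for Apom, chr12:7977427-7977726 (plus) for Apob and chr7:19699139-19699438 (minus) for Apoe. Capitals mark matches on either strand to the forkhead core TGTTTNC, the nuclear receptor half-site AGGTCA or the TATA box letters TATAAA.
Apoa1: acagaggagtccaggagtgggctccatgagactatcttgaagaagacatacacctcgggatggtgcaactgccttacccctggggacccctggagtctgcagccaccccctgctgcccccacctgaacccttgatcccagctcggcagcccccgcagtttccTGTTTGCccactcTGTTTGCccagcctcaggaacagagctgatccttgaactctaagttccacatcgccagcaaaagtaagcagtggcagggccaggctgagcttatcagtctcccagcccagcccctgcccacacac
Apoa2: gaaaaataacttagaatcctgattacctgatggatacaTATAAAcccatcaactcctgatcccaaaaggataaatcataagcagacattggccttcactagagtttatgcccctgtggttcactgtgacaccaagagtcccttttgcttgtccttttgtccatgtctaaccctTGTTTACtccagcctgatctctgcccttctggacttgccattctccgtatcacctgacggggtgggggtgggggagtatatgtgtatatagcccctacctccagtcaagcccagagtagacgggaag
Apom: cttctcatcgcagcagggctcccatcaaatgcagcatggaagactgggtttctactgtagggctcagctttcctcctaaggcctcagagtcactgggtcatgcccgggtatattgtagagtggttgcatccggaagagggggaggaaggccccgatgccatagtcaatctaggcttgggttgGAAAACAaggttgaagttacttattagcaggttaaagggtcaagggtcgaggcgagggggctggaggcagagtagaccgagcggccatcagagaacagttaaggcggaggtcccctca
Apob: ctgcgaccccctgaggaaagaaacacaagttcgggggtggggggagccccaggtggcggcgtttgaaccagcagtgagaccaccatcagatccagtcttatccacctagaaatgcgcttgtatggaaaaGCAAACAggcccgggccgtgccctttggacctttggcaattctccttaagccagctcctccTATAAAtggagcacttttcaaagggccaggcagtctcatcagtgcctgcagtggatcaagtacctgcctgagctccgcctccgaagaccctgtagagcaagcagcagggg
Apoe: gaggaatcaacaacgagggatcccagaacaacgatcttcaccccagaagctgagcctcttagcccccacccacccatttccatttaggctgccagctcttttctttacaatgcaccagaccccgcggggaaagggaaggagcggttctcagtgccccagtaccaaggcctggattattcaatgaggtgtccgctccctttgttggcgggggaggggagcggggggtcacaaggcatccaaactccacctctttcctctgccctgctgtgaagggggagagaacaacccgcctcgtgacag

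The forkhead core was found in all 4 of the windows of genes that rose. Apoa1 held it at positions -88 to -82 and -75 to -69, counted from the start site at 0, Apoa2 at -77 to -71, Apom at -68 to -62 and Apob at -121 to -115. The Apom match reads GAAAACA on the gene's strand, so the free letter of the core is T there. Of the 4 other genes with a window, Apoh held the core at -71 to -65, and Apoe, Apoa4 and Mttp held none. Over 32851 RefSeq windows of the same length, counting every window of a gene, 20.5% held it. The TATA letters were found in the Apoa2 window at -212 to -207 and in the Apob window at -60 to -55 (13.6% of all windows). The nuclear receptor half-site was found in the Apoh window only, among the 8 windows (16.3% of all). A further motif that was searched, which 7.10% of all windows hold, was in none of the 8. Apoc1 and Apoc3 have no window in the table used. These are matches of letters and do not show binding.

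Apoa1 encodes the main protein of high-density lipoprotein and the acceptor of cholesterol leaving cells. Apoa1 stood at 25.4 FPKM in Ret null gut and 3.04 FPKM in wildtype gut, an 8.35-fold difference. Its log2 ratio was 3.06 ± 0.37 (q = 0.000775 in the authors' deposited table). Its level passed 74.4% of tested lines in Ret null gut and 18.2% in wildtype gut. The line spans chromosome 9, 46228630 to 46230466 (mm10).

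Apoa2, the second structural protein of the same particle, reached 25.2 FPKM in Ret null gut, against 1.34 FPKM in wildtype gut, and was 18.8-fold higher. Its log2 ratio of 4.23 ± 0.51 (q = 0.000775 in the authors' deposited table) was rank 12 of the 759 called rises at 1 FPKM or more in at least 1 genotype. Apoa1 and Apoa2 thus had nearly the same level in Ret null gut and unequal levels in wildtype gut, and the log2 ratio of Apoa1 minus that of Apoa2 was -1.17 ± 0.63. The Apoa2 line lies on chromosome 1, 171225054 to 171226379. Apom encodes a lipocalin of high-density lipoprotein that carries sphingosine 1-phosphate. It was at 8.43 FPKM in Ret null gut and 0.806 FPKM in wildtype gut, with a log2 ratio of 3.39 ± 0.63 (q = 0.000775 in the authors' deposited table). Its line lies on chromosome 17, 35128997 to 35131752. Summed over these 3 genes, the level was 59.0 FPKM in Ret null gut and 5.19 FPKM in wildtype gut. They have the 3 largest log2 ratios of the tested lipoprotein genes, so a wide gap in the sum follows from the choice.

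**Figure D1:**
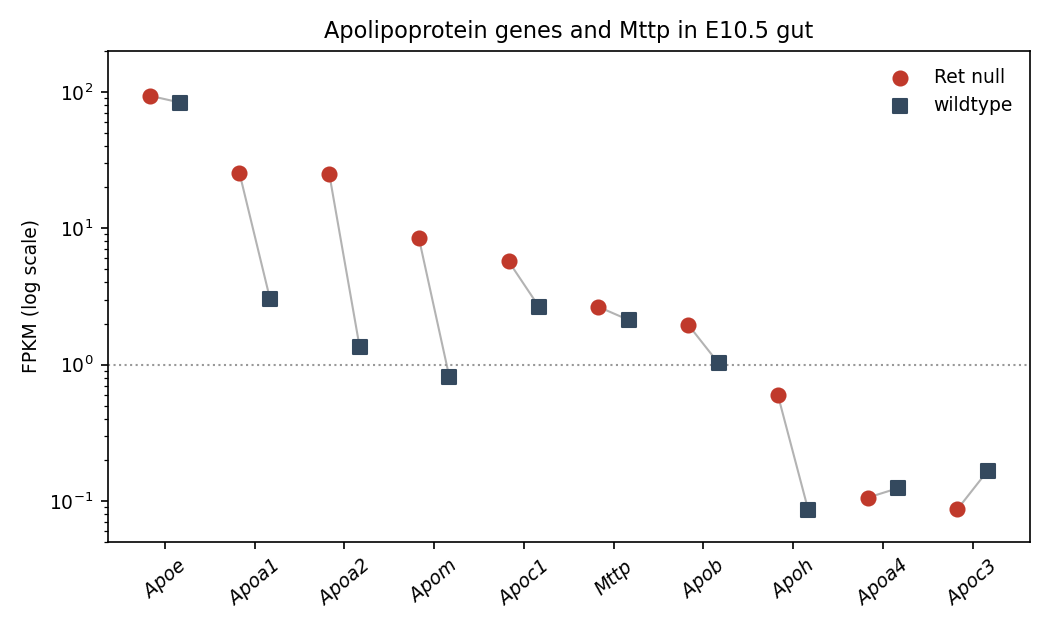
Level of each of the 10 lipoprotein genes in FPKM on a log axis, in Ret null gut (red circles) and wildtype gut (dark squares), joined by a grey line. Points are the authors' value per genotype with no spread, and the dotted line is 1 FPKM. Apoe tops both genotypes, and the widest gaps among genes above 1 FPKM in Ret null gut are those of Apoa2, Apom and Apoa1.

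Apob and Mttp, the pair that starts the assembly of triglyceride-rich particles, were low in both genotypes. Apob was at 1.96 FPKM in Ret null gut and 1.02 FPKM in wildtype gut, 1.92-fold higher, a log2 ratio of 0.94 ± 0.26 (q = 0.000775 in the authors' deposited table). Adding 1 FPKM to both values lowered that to 0.55. Mttp stood at 2.65 FPKM in Ret null gut and 2.12 FPKM in wildtype gut, a log2 ratio of 0.32 ± 0.33 that did not pass (q = 0.321 in the authors' deposited table). The change of Apoa1 exceeded that of Apob by 2.12 ± 0.45 on the log2 scale, and this difference was not tested. The Apob line spans chromosome 12, 7977677 to 8016839, and the Mttp line chromosome 3, 138089855 to 138143388, where 7.36% of annotated exon bases of Mttp overlap exons of Trmt10a on the opposite strand.

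In mouse, liver and intestine edit the Apob transcript to a shorter form, through the deaminase gene Apobec1 with the cofactors Rbm47, A1cf and Syncrip. Of the 3 tested genes of this group 2 rose (66.7%, beside 5.69% of all tested lines). Rbm47 was at 2.78 FPKM in Ret null gut and 1.47 FPKM in wildtype gut (0.92 ± 0.33 on the log2 scale), and Apobec1 at 1.74 FPKM in Ret null gut and 0.948 FPKM in wildtype gut (0.88 ± 0.54, q = 0.0445 in the authors' deposited table). Neither passed when p was read from the test statistic on a normal curve (called the normal p below). Syncrip had a log2 ratio of -0.06 ± 0.20, and A1cf was not tested. A gene-level table holds no measure of the editing itself.

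Apoe encodes the ligand by which remnant particles enter cells through receptors at the cell surface, and many tissues express it. It was at 93.6 FPKM in Ret null gut and 83.3 FPKM in wildtype gut, a log2 ratio of 0.17 ± 0.16 that did not pass (q = 0.363 in the authors' deposited table). Apoe made up 57.2% of the summed level of the 10 genes in Ret null gut and 88.0% in wildtype gut. The sum was 164 FPKM in Ret null gut and 94.7 FPKM in wildtype gut, a ratio of 1.73, and without Apoe it was 70.1 FPKM in Ret null gut and 11.3 FPKM in wildtype gut, a ratio of 6.18. Macrophages are a known source of Apoe. None of their 15 tested markers passed in the authors' Cuffdiff test, 0 were higher or lower at an unadjusted p below 0.05, and 0 passed with the normal p. Their summed level was 116 FPKM in Ret null gut and 117 FPKM in wildtype gut, with C1qc at 15.5 FPKM in each genotype and C1qb at 13.3 FPKM in Ret null and 14.5 FPKM in wildtype gut.

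Apoc1, an inhibitor of lipoprotein uptake and of lipid transfer, stood at 5.71 FPKM in Ret null gut and 2.64 FPKM in wildtype gut. Its log2 ratio of 1.11 ± 0.76 did not pass (q = 0.083 in the authors' deposited table). The error is wide, and the gene was called at q under 0.1. Apoc3, which slows the breakdown of triglyceride-rich particles, stood at 0.0868 FPKM in Ret null gut and 0.167 FPKM in wildtype gut. Apoa4, a protein of intestinal chylomicrons, stood at 0.106 FPKM in Ret null gut and 0.124 FPKM in wildtype gut. Both were too low to be tested, so no change is claimed for either. Of the annotated exon bases of Apoa4, 34.8% are shared with an antisense gene (Gm10680). Apoh, whose product is beta-2 glycoprotein I, a plasma protein that binds anionic phospholipid, was at 0.598 FPKM in Ret null gut and 0.0852 FPKM in wildtype gut and was not tested.

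**Figure D2:**
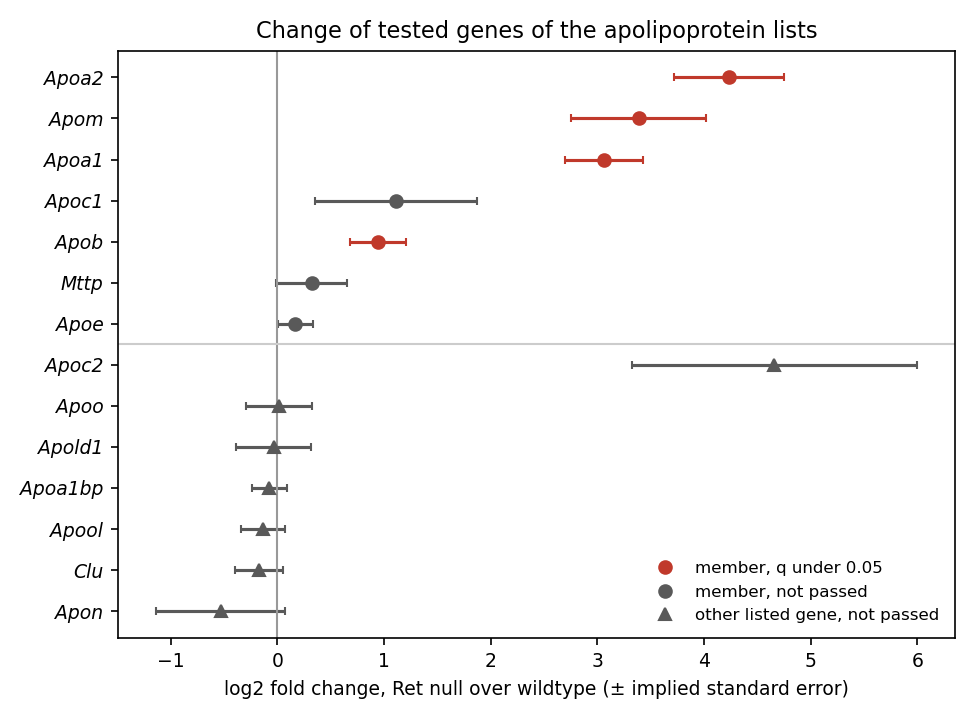
Log2 fold change (Ret null over wildtype, horizontal axis) of the tested lipoprotein genes (circles, top) and of the tested genes of a list of other apolipoprotein genes (triangles, bottom), with bars of 1 implied standard error. Red marks the 4 genes with q under 0.05, and Apoc2 has the largest value of all with an error of 1.34 and no call.

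In order of level, Ret null gut ran Apoe, Apoa1, Apoa2, Apom, Apoc1, Mttp, Apob, Apoh, Apoa4 and Apoc3. Wildtype gut ran Apoe, Apoa1, Apoc1, Mttp, Apoa2, Apob, Apom, Apoc3, Apoa4 and Apoh. At 1 FPKM or more there were 7 genes in Ret null gut and 6 in wildtype gut. With 1 value per genotype it cannot be said which neighbours in these orders differ beyond the spread between samples.

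Other genes with an apolipoprotein name or function did not pass. Of 18 listed, 7 were tested and 0 were called in either direction by the authors' Cuffdiff test. Without adjustment (unadjusted p below 0.05) 1 was higher and 0 were lower, and 1 passed with the normal p. That 1 was Apoc2, the cofactor that activates lipoprotein lipase, at 6.05 FPKM in Ret null gut and 0.239 FPKM in wildtype gut, 25.3-fold higher, with a log2 ratio of 4.66 ± 1.34 and no call (q = 0.104, the authors' deposited table). Apon stood at 0.739 FPKM in Ret null gut and 1.07 FPKM in wildtype gut, and Clu, which encodes the extracellular chaperone clusterin, at 12.6 FPKM in Ret null gut and 14.2 FPKM in wildtype gut. Apoa1bp, whose product binds apolipoprotein A-I, was at 57.0 FPKM in Ret null gut and 60.1 FPKM in wildtype gut, and Apool, which encodes a mitochondrial inner membrane protein, at 25.6 FPKM in Ret null gut and 28.2 FPKM in wildtype gut. Apoo and Apold1 had log2 ratios of 0.01 and -0.04. The other 11 genes were not tested, and among them Apoc4 stood at 0.483 FPKM in Ret null gut and 0.0786 FPKM in wildtype gut.

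The apolipoprotein genes lie partly in clusters, and within each cluster the values were unequal. On chromosome 9, Apoc3, Apoa4 and Apoa5 lie within 40 kb of Apoa1. Apoa1 reached 25.4 FPKM in Ret null gut while Apoc3 and Apoa4 were under 1 FPKM in both genotypes and Apoa5 was at 0.0121 FPKM in Ret null gut and listed at 0 in wildtype gut. The flanking genes Sik3 and Zfp259 had log2 ratios of 0.20 and 0.04 and did not pass. On chromosome 7, Apoc2, Apoc4 and Apoc1 lie on 1 side of Apoe and Tomm40 on the other. Apoc2 was 25.3-fold and Apoc1 2.16-fold higher in Ret null than in wildtype gut, neither passing, while Apoe differed 1.12-fold. Tomm40, of the mitochondrial protein import pore, was at 50.0 FPKM in Ret null gut and 39.4 FPKM in wildtype gut and rose by 0.34 ± 0.19 on the log2 scale (q = 0.016 in the authors' deposited table). Next to Apoa2 on chromosome 1, Tomm40l and Fcer1g had log2 ratios of 0.02 and 0.10 and did not pass. Within 100 kb of the 10 genes, leaving these out, 37 lines were tested, 3 rose (Tomm40, Cblc and Pcp4l1) and 0 fell, with a median log2 ratio of 0.06. Over all tested lines 5.69% rose and 8.88% fell, and an effect of position was not tested.

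**Figure D3:**
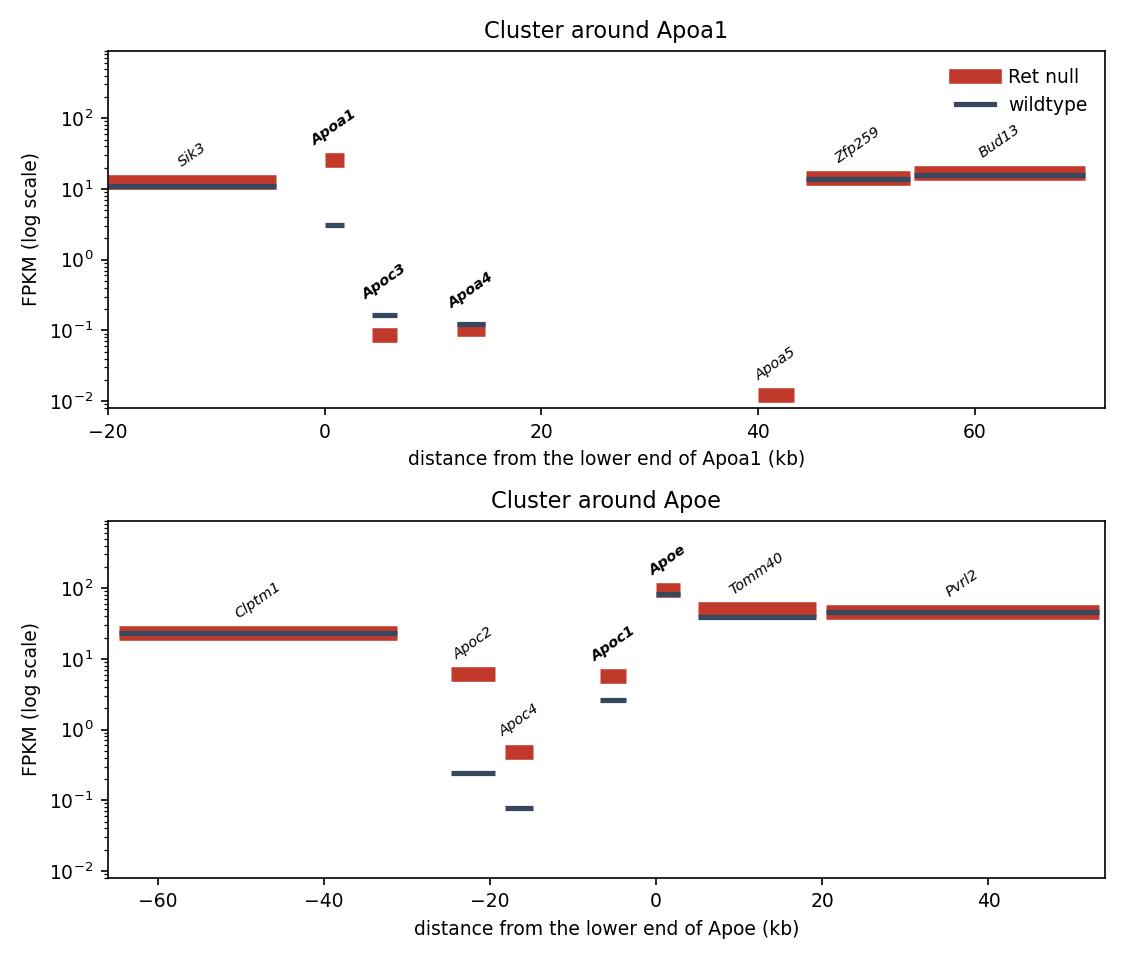
Genes around Apoa1 (top) and Apoe (bottom), each drawn over its length as distance in kb from the lower end of the named gene, at the height of its FPKM (log axis) in Ret null gut (thick red) and wildtype gut (thin dark). Bold names are the described genes, Apoa5 is listed at 0 in wildtype gut and has no dark bar, and Sik3, Zfp259, Bud13, Clptm1 and Pvrl2 lie at nearly equal heights in both genotypes.

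Among 26 tested genes of lipoprotein assembly and export 4 rose (15.4%, beside 5.69% of all tested lines) and 0 fell, and 1 was higher and 0 lower with the normal p. Without adjustment (unadjusted p below 0.05) 5 were higher and 1 was lower. Soat2, which esterifies cholesterol for packaging in liver and intestine, stood at 1.31 FPKM in Ret null gut and 0.285 FPKM in wildtype gut (2.20 ± 0.70, q = 0.00566 in the authors' deposited table). Mia2, a cargo receptor for export from the endoplasmic reticulum, stood at 1.09 FPKM in Ret null gut and 0.303 FPKM in wildtype gut (1.84 ± 0.80, q = 0.0175 in the authors' deposited table). Soat2 and Mia2 were above 1 FPKM only in Ret null gut, where they are high. Sec24d, of the vesicle coat that carries cargo to the Golgi, and Acat2, a thiolase at the head of sterol synthesis, rose by 0.39 and 0.37 on the log2 scale. With Acat2 moved to the synthesis list, 3 of 25 assembly genes rose (12%). P4hb, the partner subunit of the Mttp protein, was at 270 FPKM in Ret null gut and 256 FPKM in wildtype gut and did not pass.

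Receptors were called both ways, 31.6% of those tested, beside 14.6% of all tested lines. Of 19 tested 3 rose and 3 fell, with 3 higher and 4 lower at an unadjusted p below 0.05, and 1 higher and 0 lower with the normal p. Among the rises was Lsr, a receptor for triglyceride-rich particles, at 21.6 FPKM in Ret null gut and 14.6 FPKM in wildtype gut (0.57 ± 0.21). Vldlr, Lrp2 and Lrp6 fell by 0.58, 0.67 and 0.36 on the log2 scale. Lrp6 is also a Wnt co-receptor.

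Of 16 tested lipase and remodelling genes 0 rose and 2 fell, and 0 passed either way with the normal p. The 2 falls are 12.5%, beside 8.88% of all tested lines that fell and 14.6% that were called either way. Without adjustment (unadjusted p below 0.05) 0 were higher and 4 lower. The falls were in Abca1, which hands cholesterol to apolipoprotein A-I, at 4.25 FPKM in Ret null gut and 6.33 FPKM in wildtype gut (-0.57 ± 0.20), and in the lipase inhibitor Angptl4 (-0.46 ± 0.23, q = 0.0101 in the authors' deposited table). Lcat, the enzyme that apolipoprotein A-I activates, was at 4.64 FPKM in Ret null gut and 3.55 FPKM in wildtype gut and did not pass. Of 25 tested genes of sterol and fatty acid synthesis 3 rose (among them Dhcr7 and Sqle, by 0.35 and 0.29 on the log2 scale) and 1 fell (Scd1, -0.40), which is 12% rising and 4% falling, beside 5.69% and 8.88% of all tested lines. In that list 6 were higher and 1 was lower at an unadjusted p below 0.05, and 1 was higher and 0 lower with the normal p. With Acat2 added, 4 of 26 synthesis genes rose (15.4%).

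Carriers of fatty acids and retinol held 5 rises and 0 falls among 13 tested, with 6 higher and 0 lower at an unadjusted p below 0.05 and 4 higher with the normal p. The 5 rises are 38.5%, beside 5.69% of all tested lines. Of these, Rbp4 and Ttr are also counted among the hepatocyte markers below, and Fabp1 among the intestinal epithelium markers. Fabp1, the fatty acid binding protein of liver and intestine, was at 4.61 FPKM in Ret null gut and 0.530 FPKM in wildtype gut (3.12 ± 0.91, q = 0.0393 in the authors' deposited table). Rbp4, the plasma carrier of retinol, was at 44.1 FPKM in Ret null gut and 11.4 FPKM in wildtype gut (1.95 ± 0.29). Ttr, which binds it in plasma, was at 20.8 FPKM in Ret null gut and 6.66 FPKM in wildtype gut (1.64 ± 0.27). Slc27a2, a fatty acid transporter, and Fabp4 rose by 2.42 and 0.85 on the log2 scale.

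Transcription factors known to act on apolipoprotein genes rose in 11 of 22 tested members and fell in 0 (2 were lower at an unadjusted p below 0.05 and 0 with the normal p). The 11 are 50% of those tested, beside 5.69% of all tested lines that rose. The count of rises was 4 with the normal p. The forkhead genes Foxa2 and Foxa1 were at 7.09 and 15.7 FPKM in Ret null gut, against 1.32 and 4.23 FPKM in wildtype gut. Hnf4a, a nuclear receptor of liver and gut epithelium, was at 6.30 FPKM in Ret null gut and 1.99 FPKM in wildtype gut (1.67 ± 0.29). Hnf4g and the intestinal factor gene Cdx2 rose by 1.25 and 0.98 on the log2 scale, with q = 0.00318 for Hnf4g in the authors' deposited table. Cdx2 is also counted among the intestinal epithelium markers below.

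Markers of tissues that make apolipoproteins differed between lists. The listed hepatocyte and epithelium markers were mostly higher in Ret null gut, and the listed visceral yolk sac markers were not. The hepatocyte and yolk sac lists share no gene, so a product of both tissues could be counted in 1 of them only. The contrast depends on how genes were placed. Of 27 tested hepatocyte markers that are not apolipoproteins 24 rose and 0 fell, also at an unadjusted p below 0.05 (24 higher, 0 lower), with 18 higher and 0 lower by the normal p. Their summed level was 649 FPKM in Ret null gut and 223 FPKM in wildtype gut, a ratio of 2.91. Dlk1, a gene of hepatoblasts that many other embryonic tissues express, was at 167 FPKM in Ret null gut and 153 FPKM in wildtype gut and did not pass. Without it the sum was 483 FPKM in Ret null gut and 70.8 FPKM in wildtype gut, a ratio of 6.82. Alb, the albumin gene, was at 72.8 FPKM in Ret null gut and 0.433 FPKM in wildtype gut, and Afp, the gene of alpha-fetoprotein, at 148 FPKM in Ret null gut and 4.68 FPKM in wildtype gut. Serpina6, which encodes the plasma carrier of corticosteroids, was 18.4-fold higher in Ret null gut, close to the 18.8-fold of Apoa2. Cyp3a11, a marker of the mature hepatocyte, was listed at 0 in both genotypes. Of the 27 markers, 7 had a larger log2 ratio than Apoa2, 10 than Apoa1 and 10 than Apom, against 25 for Apob and 26 for Apoe. Not all of the 7 passed. A gene was tested only above a low level, which some markers reached in Ret null gut only. The 27 are therefore not a fair sample of the 34 listed. Among general epithelium markers 15 of 16 rose and 1 fell (15 higher and 1 lower at an unadjusted p below 0.05, 12 and 0 with the normal p), with a summed level of 444 FPKM in Ret null gut and 230 FPKM in wildtype gut. Epcam and Cdh1 were at 59.1 and 22.8 FPKM in Ret null gut, against 26.4 and 10.6 FPKM in wildtype gut. Of 9 tested intestinal epithelium markers 5 rose and 0 fell (7 higher and 0 lower at an unadjusted p below 0.05, 3 and 0 with the normal p). The list had a summed level of 51.8 FPKM in Ret null gut and 27.2 FPKM in wildtype gut. Of the 17 listed, 8 were not tested, so the 9 are not a fair sample either. Fabp1, for example, was at 4.61 FPKM in Ret null gut and 0.530 FPKM in wildtype gut. Guca2a was listed at 0 in both genotypes, and Sis was at 0.00547 FPKM in Ret null gut and listed at 0 in wildtype gut. The shares called were 88.9% for hepatocyte, 100% for general epithelium and 55.6% for intestinal epithelium markers, beside 14.6% of all tested lines.

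The visceral yolk sac list held 1 rise (Cpn1, 1.93 ± 0.32) and 2 falls (Ctsh and Lrp2) among 13 tested markers. At an unadjusted p below 0.05, 1 was higher and 4 were lower, and with the normal p 1 was higher and 0 were lower. The list had a summed level of 178 FPKM in Ret null gut and 180 FPKM in wildtype gut. Amn and Cubn, which form the yolk sac's receptor for protein uptake, were at 0.433 and 0.520 FPKM in Ret null gut, against 0.299 and 0.606 FPKM in wildtype gut. Neither was tested. Of 9 tested crest and glia markers 7 fell and 0 rose (0 higher and 7 lower at an unadjusted p below 0.05, 0 and 5 with the normal p), with a summed level of 49.9 FPKM in Ret null gut and 83.2 FPKM in wildtype gut, and Fabp7, a lipid carrier of glia, was at 8.66 FPKM in Ret null gut and 8.51 FPKM in wildtype gut. Of 10 tested erythroid lines 3 rose and 3 fell (4 higher and 4 lower at an unadjusted p below 0.05, 1 and 2 with the normal p), with a summed level of 4822 FPKM in Ret null gut and 7175 FPKM in wildtype gut. The shares called were 23.1% for yolk sac, 77.8% for crest and glia and 60% for erythroid markers, beside 14.6% of all tested lines. The part of these tissues in the values of the lipoprotein genes was not tested.

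**Figure D4:**
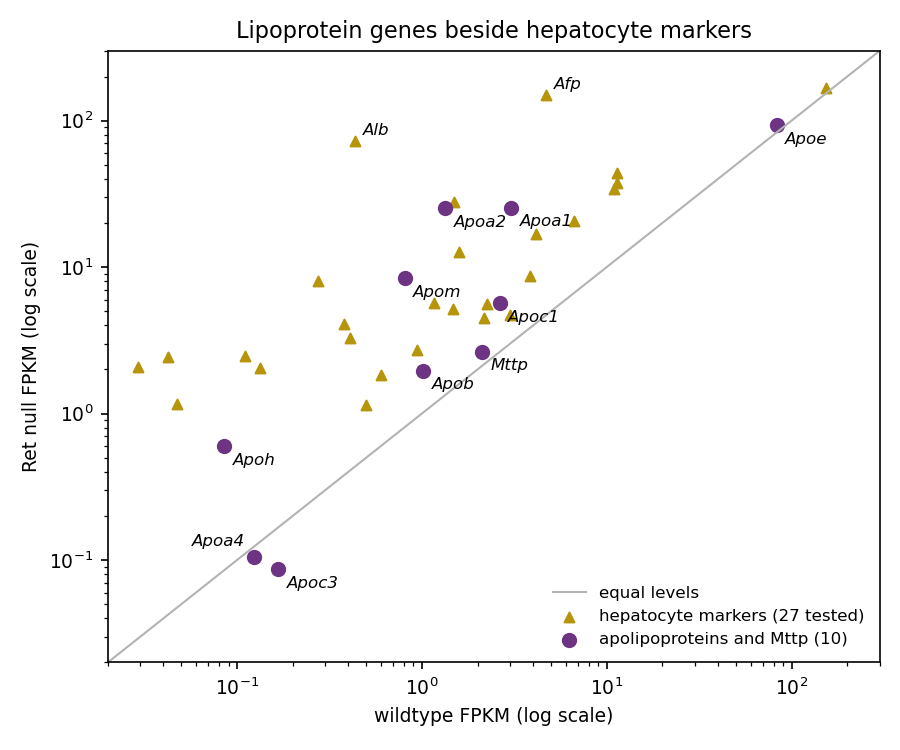
Ret null FPKM (vertical) against wildtype FPKM (horizontal), both on log axes, for the 10 lipoprotein genes (purple) and the 27 tested hepatocyte markers (gold triangles), with a line of equal levels. Apoa1, Apoa2 and Apom lie among the markers, Apoe, Mttp and Apoa4 lie near the line, and Apoc3 lies below it.

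**Figure D5:**
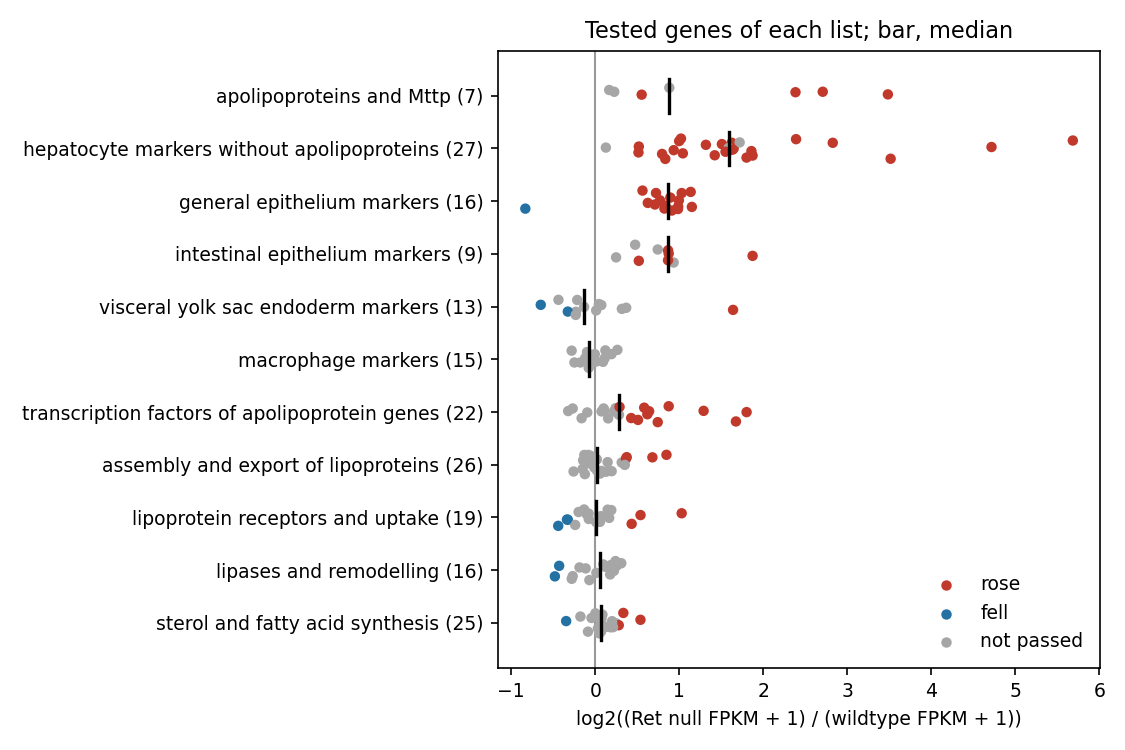
Log2 fold change with 1 FPKM added to both genotypes for each tested gene of the lipoprotein genes and of 10 lists (number tested in brackets), with genes that rose in red, fell in blue and did not pass in grey. Black bars are medians, 0.88 for the lipoprotein genes and 1.59 for hepatocyte markers, beside 0.01 over all tested lines.

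On the scale with 1 FPKM added, the 7 tested lipoprotein genes had a median log2 ratio of 0.88, from 0.17 for Apoe to 3.48 for Apoa2. The same median was 1.59 for hepatocyte markers, 0.86 for general epithelium markers, 0.87 for intestinal epithelium markers and 0.29 for the transcription factors. It was 0.02 for assembly and export, 0.05 for lipases and remodelling, -0.07 for macrophage markers, -0.13 for yolk sac markers and 0.01 over all tested lines.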

How the data were processed

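Per the labels' protocols, polyadenylated RNA of E10.5 guts was made into Illumina TruSeq libraries, and the series names paired reads of 75 bp. The submitters' processing notes name Picard, TopHat2, Cufflinks, Cuffdiff and the build mm10, without versions. For settings, gene annotation and use of strand, nothing is stated in the labels or file. The authors deposited 1 table with an FPKM value per genotype, whose columns w and h stand for wildtype and homozygous mutant as read here, and Ret is near 0 in h. Its test statistic, a score per gene, p-value and q-value are the authors' own, per the file headers, and q is 1 where a line was not tested. Of 23234 lines, 1 holding 2 run-together records was not used, and 13430 were tested. No tested line has a p-value under 5e-05 in the authors' deposited table, and 867 lines share it.

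Log2 fold changes were recomputed from FPKM, and implied standard errors are these divided by the test statistic. For a difference between 2 genes, their errors were combined as if independent, though both genes were measured in the same libraries. The authors' p-values do not follow from that statistic as a normal deviate, so such a normal p, Benjamini-Hochberg adjusted over tested lines with a statistic, was run as an alternative. The other alternatives were q thresholds of 0.01 and 0.1, minimum levels in at least 1 genotype, a 1.5-fold minimum, readjustment, pseudocounts and 2 rescalings. Moving Acat2 between lists and leaving out Dlk1 were chosen after seeing the data. Calculations used Python 3.11.15 with numpy 2.4.6, pandas 2.3.3 and scipy 1.17.1, and were tested on simulated data. Starts in the table count from 0 and were raised by 1. GENCODE M21 exons (GRCm38, the same build) gave overlaps. No values per sample are in the table, so p-values rest on the authors' model of 3 against 3 samples.

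The 10 genes and the 15 lists were chosen with earlier results of these data known. Named genes are the 10, all those of the list of other apolipoproteins by name or count, and from each other list up to 6 called by smallest q and then largest change, or, with none called, the 2 with the highest mean. Dlk1, P4hb, Lcat, Syncrip, A1cf, Cyp3a11, Guca2a, Sis, Amn, Cubn and Fabp7, outside that rule, were chosen after their values were seen. Some genes that this rule names are not reported here.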

Additional observations from a re-analysis of the deposited data

How the results depend on the processing

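The 4 rises and 0 falls among the lipoprotein genes were unchanged at q under 0.01, with at least a 1.5-fold change and with the normal p. They were also unchanged with at least 1 FPKM in at least 1 genotype, and with p readjusted over such lines. Apom met that level in Ret null gut only (8.43 FPKM, against 0.806 FPKM in wildtype gut). A q under 0.1 added Apoc1. A minimum of 5 FPKM in at least 1 genotype left 3 rises, without Apob, each at that level in Ret null gut only. A minimum level met only in the genotype where a gene is high could not remove its rise, so it does not test it. Over 40 recomputed log2 fold changes (2 pseudocounts, centring on the median and equal upper quartiles), 0 of the 10 genes changed sign, and the rescalings shifted all values by 0.01 and 0.02. With 1 FPKM added the log2 fold change of Apoa2 was 3.48, of Apom 2.38 and of Apob 0.55. Leaving out Apoe moved the ratio of summed levels to 6.18, and leaving out Dlk1 moved that of the hepatocyte markers to 6.82 (chosen after seeing the data). The share of all tested lines called was 8.62% with a 1.5-fold minimum and 4.5% with the normal p (604 lines against 1956). The transcription factor list held 5 rises at 5 FPKM or more in at least 1 genotype, and the hepatocyte list held 14. Fewer genes were tested at that level. With the normal p the transcription factor list held 4 rises, and at q under 0.1 it held 1 fall. Of 182 recomputed counts of the other lists, 33 moved by over 1.5 times. No paired analysis was possible because the table holds 1 value per genotype, and for the same reason no sample could be left out. Depth is unknown: the median implied error was 0.61 for tested lines under 1 FPKM and 0.39 from 1 to 5 FPKM.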
